A study of Drosophila melanogaster with 12 samples.

Results

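The salivary glue protein genes were followed through 12 RNA sequencing libraries of Drosophila melanogaster larvae. The 7 genes Sgs1, Sgs3, Sgs4, Sgs5, Sgs7, Sgs8 and Eig71Ee were taken by symbol out of the 17806 genes, rRNA genes included, in the deposited table of estimated counts, and each of them was also found in the second table, which counts whole reads in 6 of the libraries. They were chosen by name with their levels and their changes on depletion in these libraries already known, so the values below describe these genes and support no claim about why they stand where they do. The study tested Ribo-Pop, a method in which biotinylated antisense oligonucleotides to the 18S and 28S rRNAs are hybridized to total RNA and pulled out on streptavidin beads. Wild-type Oregon-R larvae at the wandering stage of the third instar were collected in 3 samples of 40 whole larvae, and a synthetic spike-in RNA mix was added before depletion. The 4 groups, of 3 libraries each, were random-primed libraries of depleted RNA, random-primed libraries of input RNA, which is the same total RNA without depletion, poly(A)-primed libraries of depleted RNA, and poly(A)-primed libraries of input RNA. The random-primed libraries carry reads from the whole length of a transcript, whereas the poly(A)-primed (QuantSeq) libraries carry reads from its 3′ end. No group received a genetic or drug treatment, and each comparison sets portions of the same larval RNA against each other.

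Glue proteins are made in the larval salivary gland late in the third instar, stored in secretory granules, and expelled at the onset of metamorphosis to fix the pupal case to its substrate. Transcription of the Sgs genes is switched on by the steroid hormone ecdysone through its receptor and the Broad transcription factors, together with the gland factor Fork head, and is switched off again by the late ecdysone pulse before pupariation. Sgs1, Sgs3, Sgs4 and Eig71Ee encode mucin-like proteins with threonine-rich repeats that carry many O-linked sugars, while Sgs5, Sgs7 and Sgs8 encode smaller glue proteins without such long repeats. Sgs7 and Sgs8 resemble the cysteine-rich end of Sgs3.

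In the BDGP6.54 annotation, Sgs1 lies at 2L:4937409-4941423 on the plus strand and has the longest transcript of the family, 3950 bases in 2 exons. Sgs3 (3L:11512221-11513402, plus strand, 1109 bases), Sgs7 (3L:11509861-11510247, plus strand, 321 bases) and Sgs8 (3L:11508967-11509394, minus strand, 359 bases) form one cluster, with 466 bases between Sgs8 and Sgs7 and 1973 bases between Sgs7 and Sgs3. Each of these 3 genes has 2 exons. Sgs4 (X:3250089-3251040, plus strand) is a single exon of 952 bases that sits inside an intron of dnc, the phosphodiesterase gene dunce, on the same strand. Sgs5 (3R:17595362-17596112, plus strand) has 3 exons that make 636 bases, and its neighbor CG7587, known as Sgs5bis, ends 304 bases away. Eig71Ee (3L:15654472-15656010, minus strand) has 2 exons that make 1486 bases. Coding sequence made up 97.7% of the Sgs1 transcript, 90.4% of Sgs4, 89.8% of Eig71Ee and 83.0% of Sgs3, against 76.9% of Sgs5, 69.2% of Sgs7 and 62.7% of Sgs8.

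**Figure D1:**
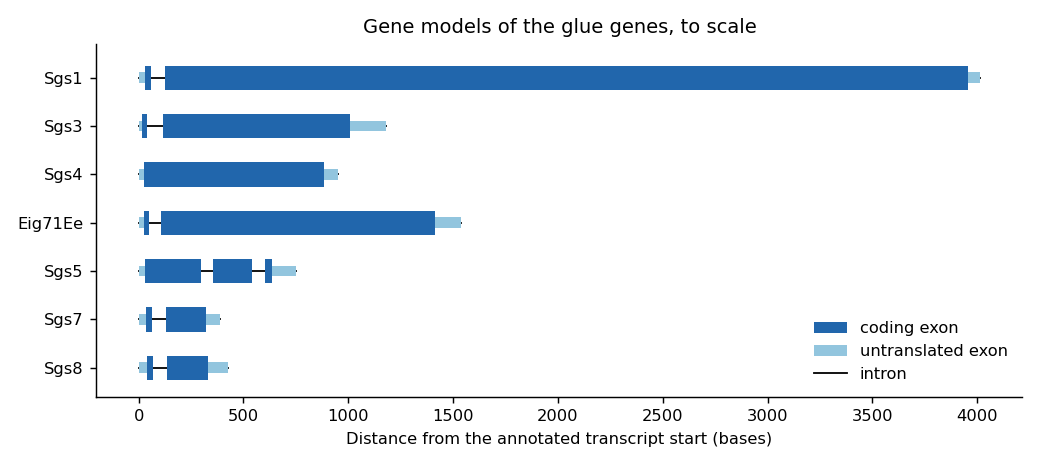
Gene models of the 7 glue genes drawn to scale from the annotated transcript start (x axis, bases), with coding exons as tall dark bars, untranslated exon parts as low light bars and introns as lines. The Sgs1 transcript, at 3950 bases, is longer than that of any other member, and those of Sgs7 and Sgs8, at 321 and 359 bases, are the shortest.

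Levels are given as CPM, the count of a gene scaled to library depth, where depth is the sum of all counts that were neither rRNA nor spike-in. The random-primed libraries held between 14264502 and 16889144 estimated counts when depleted and between 16158593 and 16777734 as input, but rRNA took 23.7% to 33.4% of the depleted and 96.2% to 97.3% of the input totals. The random-primed input levels therefore rest on 428039 to 596423 non-rRNA counts per library, against 9037947 to 12422418 in the depleted libraries. The poly(A)-primed libraries held between 3503819 and 5216927 counts when depleted and between 4087436 and 6329164 as input. In them rRNA took 7.64% to 23.4% of the depleted and 5.09% to 13.8% of the input totals. That share was lower after depletion in replicate 1 and higher in replicates 2 and 3. Relative to the spike-ins, 18S and 28S rRNA fell to 0.581% ± 0.088 of the input level in the random-primed and 0.402% ± 0.099 in the poly(A)-primed libraries (SD, n = 3 each).

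Per kilobase of transcript, Sgs7 was the highest of the family in every group. In random-primed depleted libraries it averaged 22094 ± 5005 CPM per kb, followed by Sgs5 with 4960 ± 824, Sgs8 with 3462 ± 896, Eig71Ee with 621 ± 68, Sgs3 with 588 ± 18, Sgs4 with 460 ± 48 and Sgs1 with 7.33 ± 1.61 (SD, n = 3). In that order the neighbors Sgs5 and Sgs8 had overlapping ranges of mean ± SD, as did Eig71Ee and Sgs3. In random-primed input libraries Sgs7 averaged 15230 ± 3466 CPM per kb, Sgs3 4334 ± 1035, Sgs5 4130 ± 711, Sgs8 3332 ± 819, Sgs4 2064 ± 95, Eig71Ee 825 ± 51 and Sgs1 284 ± 18 (SD, n = 3). There the ranges of mean ± SD of Sgs3, Sgs5 and Sgs8 overlapped, and those of the other neighbors did not. Sgs3 thus stood in the second place of the input order and in the fifth of the depleted order, and Eig71Ee and Sgs4 changed places.

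The poly(A)-primed order was similar, with the caution that a 3′ read count does not grow with transcript length. In poly(A)-primed depleted libraries the means were 184140 ± 53094 CPM per kb for Sgs7, 31084 ± 5510 for Sgs8, 15009 ± 1224 for Sgs5, 2322 ± 431 for Sgs3, 598 ± 193 for Sgs4, 399 ± 57 for Eig71Ee and 9.16 ± 1.80 for Sgs1 (SD, n = 3). In the poly(A)-primed input libraries they were 164707 ± 43940 for Sgs7, 39053 ± 7327 for Sgs8, 18092 ± 1306 for Sgs5, 10983 ± 2767 for Sgs3, 1546 ± 113 for Sgs4, 475 ± 72 for Eig71Ee and 43.3 ± 1.0 for Sgs1 (SD, n = 3). Only Sgs4 and Eig71Ee in the depleted libraries had overlapping ranges of mean ± SD. By mean CPM without regard to length, Sgs7 was the first of 14426 genes detected in the depleted and of 14497 genes detected in the input poly(A)-primed libraries.

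**Figure D2:**
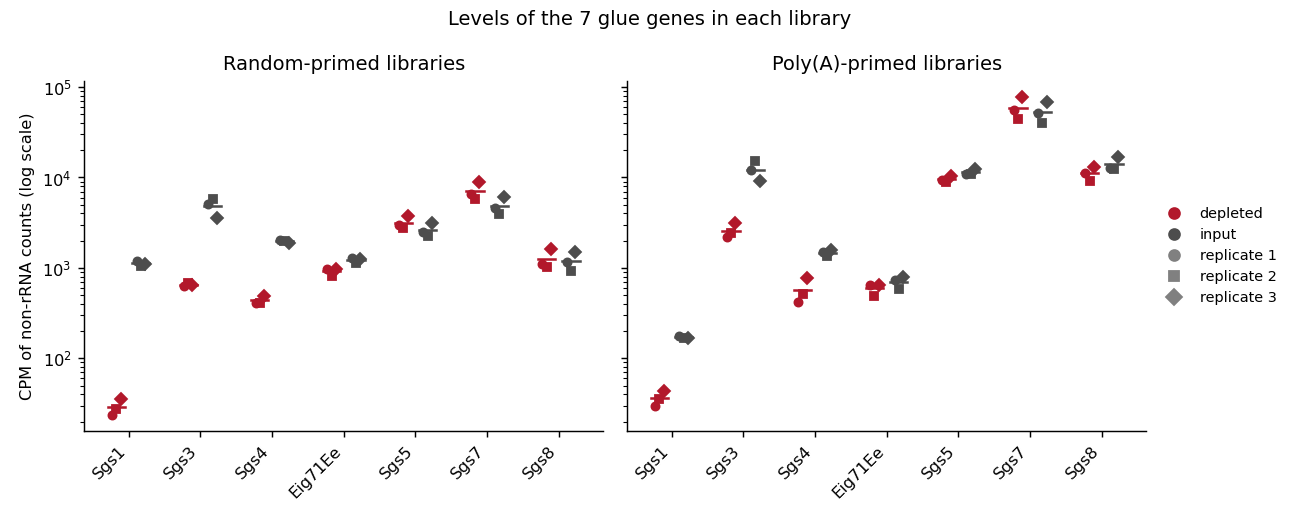
Level of each glue gene in each of the 12 libraries (y axis, CPM of non-rRNA counts on a log scale), with depleted libraries in red to the left of input libraries in gray, a symbol for each replicate number, and a line at the group mean. Sgs1, Sgs3 and Sgs4 are lower in all depleted than in all input libraries of both library types, whereas the points of Sgs7 and Sgs8 overlap.

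Together the 7 genes took 1.35% ± 0.26 of the non-rRNA counts in random-primed depleted libraries and 1.78% ± 0.07 in random-primed input libraries, and 8.36% ± 2.04 in poly(A)-primed depleted and 9.29% ± 1.45 in poly(A)-primed input libraries (SD, n = 3 each). The members behaved unequally within this share. Sgs1, Sgs3 and Sgs4, a group formed after their values were seen, made up 0.112% ± 0.005 of the random-primed depleted against 0.789% ± 0.123 of the random-primed input counts, and 0.318% ± 0.067 of the poly(A)-primed depleted against 1.38% ± 0.30 of the poly(A)-primed input counts. The other 4 genes made up 1.24% ± 0.25 of the depleted against 0.994% ± 0.190 of the input counts in random-primed libraries, and 8.04% ± 1.98 against 7.91% ± 1.74 in poly(A)-primed libraries. Sgs7 alone provided between 50.4% and 54.2% of the family's counts in random-primed depleted libraries, against 23.0% to 33.0% in random-primed input libraries.

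The comparison of depleted with input RNA asks whether removal of rRNA left the measurement of these mRNAs unchanged. It was made with edgeR's quasi-likelihood test over all genes, with Benjamini-Hochberg adjustment and a threshold of 0.01 on the adjusted p. In random-primed libraries 3 of the 7 genes were called lower and none higher at that threshold, where 1.44% of the 10893 genes tested were called lower and 0.00918% higher. In poly(A)-primed libraries the same 3 genes, Sgs1, Sgs3 and Sgs4, were called lower and none higher by either counting method. There 1.46% of 9823 genes were called lower and 0.102% higher with Kallisto estimated counts, and 1.53% of 9530 genes lower and 0.115% higher with HTSeq counts of the same libraries. The median log2 fold change of the 7 genes was -0.46 in random-primed libraries, against 0.06 over all genes tested, and -0.52 in poly(A)-primed libraries with each counting method, against 0.02.

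The replicate numbers mark RNA samples that were split into the input and depleted portions, so the test was also run with the replicate number as a block. The block enlarged the number of calls among all genes. With it, 3.8% of the genes were called lower and 1.13% higher in random-primed libraries, 7.31% lower and 3.52% higher in poly(A)-primed libraries with Kallisto counts, and 7.94% lower and 3.98% higher with HTSeq counts. In each of these 3 comparisons 5 of the 7 glue genes were called with the block, all 5 lower in poly(A)-primed libraries, and 3 lower and 2 higher in random-primed libraries. Sgs1 and Sgs4 kept their calls in all 3, Sgs3 lost its call in all 3, and which of the others were called depended on the library type, as given gene by gene below.

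**Figure D3:**
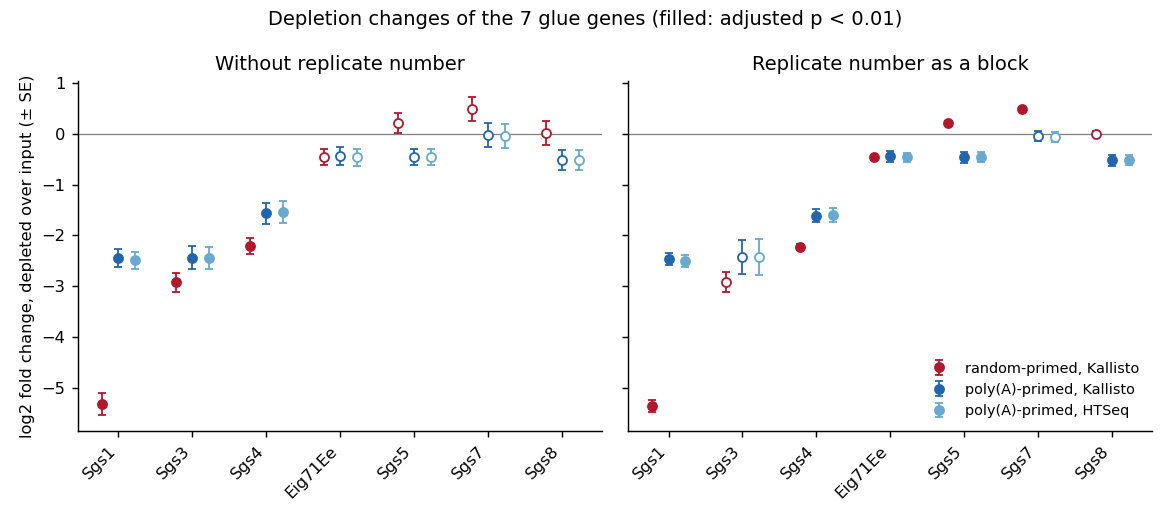
Log2 fold change of depleted over input RNA for each glue gene (y axis, points with SE) in the random-primed libraries and in the poly(A)-primed libraries counted in 2 ways, from the test without replicate numbers (left) and with the replicate number as a block (right). Filled points passed an adjusted p of 0.01. Sgs1 in random-primed libraries, at -5.32, lies below all other points, and the points of Sgs3 turn open with the block.

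Sgs1 encodes the largest glue mucin and, in random-primed libraries, had a larger change than the other 6 members. Its level was 23.6, 27.3 and 36.0 CPM in the random-primed depleted libraries, against 1198, 1063 and 1100 CPM in the random-primed input libraries. In poly(A)-primed libraries it was 29.5, 35.3 and 43.7 CPM in depleted RNA, against 175, 167 and 170 CPM in input RNA. All depleted libraries were far below all input libraries, and replicate 3 was the highest depleted library in both types. The fitted change was -5.32 on the log2 scale (SE 0.21, a 39.9-fold lower level, adjusted p = 1.1e-07 by edgeR) in random-primed libraries and -2.44 (SE 0.17, 5.44-fold lower, adjusted p = 5.6e-06) in poly(A)-primed libraries. The HTSeq counts gave -2.49 (SE 0.17, edgeR adjusted p = 3e-06). The random-primed depleted libraries held 293, 330 and 325 counts of Sgs1 and the input libraries 666, 634 and 471. Per spike-in count, 2.25% ± 0.54 of the input level remained in random-primed and 17.9% ± 4.2 in poly(A)-primed libraries (SD, n = 3 RNA samples).

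Sgs3, a mucin of the cluster on chromosome arm 3L, was at 633, 673 and 649 CPM in random-primed depleted libraries, against 5137, 5753 and 3530 CPM in random-primed input libraries. It was at 2204, 2407 and 3115 CPM in poly(A)-primed depleted libraries, against 12234, 15222 and 9085 CPM in poly(A)-primed input libraries. The groups did not overlap, and replicate 3 was the lowest input library in both types. The fall was -2.93 on the log2 scale (SE 0.19, 7.60-fold, edgeR adjusted p = 7.3e-06) in random-primed libraries, and -2.44 (SE 0.22, 5.42-fold, adjusted p = 4.9e-05) in poly(A)-primed libraries. With the replicate number as a block the sizes barely moved, to -2.91 and -2.42, but the adjusted p was 0.025 and 0.042, and 0.05 with HTSeq counts, so the call at 0.01 was lost. The ratio of depleted to input level within RNA samples was 0.123, 0.117 and 0.184 in random-primed and 0.180, 0.158 and 0.343 in poly(A)-primed libraries, with replicate 3 the highest in each.

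Sgs4, the X-linked mucin inside dnc, was at 410, 412 and 491 CPM in random-primed depleted libraries, against 2038, 1993 and 1864 CPM in random-primed input libraries. In poly(A)-primed libraries it was at 419, 514 and 775 CPM in depleted RNA, against 1505, 1351 and 1559 CPM in input RNA. Every depleted library was below every input library, with replicate 3 the highest of the depleted ones. The change was -2.21 on the log2 scale (SE 0.16, 4.63-fold lower, edgeR adjusted p = 1.5e-05) in random-primed libraries and -1.56 (SE 0.21, 2.96-fold lower, adjusted p = 0.001) in poly(A)-primed libraries. The HTSeq counts gave -1.54 (SE 0.22, edgeR adjusted p = 0.0014). Leaving out input replicate 1, depleted replicate 1 or depleted replicate 2 ended the poly(A)-primed call, with edgeR adjusted p of 0.011, 0.013 and 0.023 for Kallisto counts and 0.014, 0.015 and 0.021 for HTSeq counts. With the block the adjusted p was 4.3e-08 in poly(A)-primed and 4.2e-12 in random-primed libraries.

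Eig71Ee, the mucin-like gene of the ecdysone-induced 71E cluster, differed less. It was at 980, 805 and 981 CPM in random-primed depleted libraries, against 1289, 1142 and 1248 CPM in random-primed input libraries, and the groups did not overlap. It was at 643, 494 and 640 CPM in poly(A)-primed depleted libraries, against 736, 587 and 795 CPM in poly(A)-primed input libraries, and these groups overlapped. The log2 fold change was -0.46 (SE 0.16, edgeR adjusted p = 0.25) and -0.44 (SE 0.17, adjusted p = 0.18), neither of which passed the threshold. The value of each RNA sample was lower after depletion, at ratios of 0.761, 0.705 and 0.787 in random-primed and 0.874, 0.843 and 0.805 in poly(A)-primed libraries. With the replicate number as a block both changes passed, with edgeR adjusted p of 6.6e-06 and 0.0013, and 0.00035 with HTSeq counts.

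Sgs5, the glue gene with 3 exons, was at 2971, 2748 and 3746 CPM in random-primed depleted libraries, against 2492, 2257 and 3131 CPM in random-primed input libraries, and the groups overlapped. It was at 9439, 8827 and 10372 CPM in poly(A)-primed depleted libraries, against 11028, 11025 and 12465 CPM in poly(A)-primed input libraries, where the highest depleted library was below the lowest input library. The fitted log2 fold changes had opposite signs, at 0.22 (SE 0.20, edgeR adjusted p = 0.75) in random-primed and -0.46 (SE 0.16, adjusted p = 0.12) in poly(A)-primed libraries, and neither passed the threshold. Within RNA samples the ratio of depleted to input level was 1.19, 1.22 and 1.197 in random-primed and 0.856, 0.801 and 0.832 in poly(A)-primed libraries. With the block both values passed the threshold, in opposite directions, with edgeR adjusted p of 0.0015 and 0.001 (0.00056 with HTSeq counts). The size of the random-primed value depended on the scaling. Per spike-in count the level of Sgs5 after depletion was 104% ± 1.8 of input in random-primed and 69.6% ± 1.8 in poly(A)-primed libraries, where all non-rRNA counts together were at 86.5% ± 0.9 and 84.0% ± 5.0 of input (SD, n = 3 RNA samples). With spike-in scaling the random-primed log2 fold change was 0.06 (edgeR adjusted p = 1).

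Sgs7, one of the small glue genes, was at 6620, 5775 and 8882 CPM in random-primed depleted libraries, against 4655, 3912 and 6100 CPM in random-primed input libraries. It was at 55162, 44385 and 77779 CPM in poly(A)-primed depleted libraries, against 51391, 39564 and 67657 CPM in poly(A)-primed input libraries. The groups overlapped in both library types, since replicate 3 was high and replicate 2 low in each group. The log2 fold change was 0.49 (SE 0.23, edgeR adjusted p = 0.47) in random-primed and -0.02 (SE 0.24, adjusted p = 0.97) in poly(A)-primed libraries. Within RNA samples the random-primed ratio was 1.42, 1.48 and 1.46, a spread far smaller than that between samples, and with the block this rise passed the threshold at 0.49 (SE 0.04, edgeR adjusted p = 8e-08). The poly(A)-primed ratio was 1.07, 1.12 and 1.15, and its fitted change with the block, -0.04 (SE 0.10, edgeR adjusted p = 0.84), did not pass. The ratios are of CPM, whereas the fit rescales the libraries (TMM), so the direction for Sgs7 in poly(A)-primed libraries depended on the scaling. For the other members, too, ratios and fitted changes rest on different scalings. Per spike-in count the level after depletion was 126% ± 3 of input in random-primed and 93.8% ± 7.8 in poly(A)-primed libraries (SD, n = 3 RNA samples).

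Sgs8, the neighbor of Sgs7 on the opposite strand, was at 1098, 1019 and 1611 CPM in random-primed depleted libraries, against 1165, 919 and 1505 CPM in random-primed input libraries. It was at 11138, 9192 and 13148 CPM in poly(A)-primed depleted libraries, against 12590, 12415 and 17056 CPM in poly(A)-primed input libraries. Both pairs of groups overlapped. The log2 fold change was 0.01 (SE 0.24, edgeR adjusted p = 1) in random-primed libraries, where the sign turned with spike-in scaling (-0.16) and with DESeq2 size factors (-0.01). It was -0.52 (SE 0.19, adjusted p = 0.15) in poly(A)-primed libraries, and this value passed with the block (edgeR adjusted p = 0.00036, and 0.00013 with HTSeq counts). Although they are neighbors of near equal length, Sgs7 and Sgs8 parted on depletion. The Sgs7 count was 6.03, 5.67 and 5.51 times the Sgs8 count in random-primed depleted libraries, against 3.995, 4.26 and 4.05 times in random-primed input libraries, and 4.95, 4.83 and 5.92 times in poly(A)-primed depleted libraries, against 4.08, 3.19 and 3.97 times in poly(A)-primed input libraries. The ratio was higher in all depleted than in all input libraries of each type.

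Whether the depletion effect differed between the library types was tested as an interaction over all 12 libraries with edgeR, random-primed minus poly(A)-primed. Sgs1 was the single glue gene past the threshold, with a difference of -2.74 on the log2 scale (SE 0.25, adjusted p = 1.8e-05), where 0.0358% of 11175 genes were called lower and 0.0268% higher. The depleted level of Sgs1 in random-primed libraries was 0.800 times that in poly(A)-primed libraries, whereas its input level was 6.55 times that in poly(A)-primed libraries. For Sgs3 the difference was -0.36 (SE 0.29) and for Sgs4 -0.52 (SE 0.27), with edgeR adjusted p of 0.68 and 0.46. Sgs5, Sgs7 and Sgs8 had differences of 0.81 (SE 0.25), 0.65 (SE 0.37) and 0.66 (SE 0.33), with edgeR adjusted p of 0.19, 0.51 and 0.45. The median of all genes was itself 0.16 in this comparison and 0.00 with DESeq2 size factors, so these differences should be read against that shift. Eig71Ee differed by 0.12 (SE 0.23, edgeR adjusted p = 0.9), and its sign turned to -0.05 with DESeq2 size factors and to -0.12 with spike-in scaling. With the replicate number as a block, Sgs5, Sgs7 and Sgs8 were called along with Sgs1, with edgeR adjusted p of 3e-06, 1.6e-05 and 0.00015, where 0.456% of the genes were called lower and 3.02% higher.

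The members differed in how their level compared between the library types. These types also differ in kit, RNA amount and PCR cycles, so an effect of priming cannot be told apart from these. In depleted RNA the poly(A)-primed CPM was 8.98 times the random-primed CPM for Sgs8, 8.33 times for Sgs7, 3.95 times for Sgs3, 3.03 times for Sgs5, 1.30 times for Sgs4 and 1.25 times for Sgs1, and 0.642 times for Eig71Ee. In input RNA it was 11.7 times for Sgs8, 10.8 times for Sgs7, 4.38 times for Sgs5 and 2.53 times for Sgs3, but 0.749 times for Sgs4, 0.576 times for Eig71Ee and 0.153 times for Sgs1. Sgs7 and Sgs8, the shortest transcripts of the family, had the highest of these ratios in depleted and in input RNA.

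The spread between the 3 libraries of a group was taken as the SD of log2(CPM + 1). It was ranked among the genes that averaged 10 CPM or more in that group. The median SD of those genes was 0.31 in random-primed input, where non-rRNA counts were few, and 0.18 in random-primed depleted libraries. It was 0.21 in poly(A)-primed depleted and 0.20 in poly(A)-primed input libraries. No allowance was made for level or depth, so the percentiles are not like for like between groups. Sgs7 stood high in most groups, with an SD of 0.32 in random-primed depleted libraries (percentile 84.7) and 0.32 in random-primed input libraries (percentile 52.1), and 0.41 in poly(A)-primed depleted (percentile 86.8) and 0.39 in poly(A)-primed input libraries (percentile 87.1). Sgs1 was variable after depletion and steady in input RNA, with SDs of 0.30 (percentile 81.5) in random-primed depleted and 0.09 (percentile 6.69) in random-primed input libraries, and 0.28 (percentile 65.5) in poly(A)-primed depleted and 0.03 (percentile 2.21) in poly(A)-primed input libraries. Sgs4 showed the same contrast in poly(A)-primed libraries, with 0.45 (percentile 90.3) in depleted and 0.11 (percentile 20.9) in input RNA. Sgs8 had an SD of 0.35 (percentile 89.9) in random-primed depleted and 0.36 (percentile 57.9) in random-primed input libraries, both above Sgs7. It had 0.26 in both poly(A)-primed groups (percentiles 61.7 and 66.4). In the order random-primed depleted, random-primed input, poly(A)-primed depleted and poly(A)-primed input, Sgs5 stood at percentiles 66.8, 36.5, 20.4 and 19.1. Eig71Ee stood at 46.3, 7.07, 51.4 and 58.7. Sgs3 was steadier after depletion, with 0.04 (percentile 5.85) in random-primed depleted and 0.37 (percentile 59.8) in random-primed input libraries, and 0.26 (percentile 61.9) in poly(A)-primed depleted and 0.37 (percentile 85.7) in poly(A)-primed input libraries.

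The deviations of Sgs5, Sgs7 and Sgs8 followed the RNA sample. For each of these genes replicate 3 was the highest and replicate 2 the lowest library in all 4 groups. For Sgs7 replicate 3 deviated from the group mean by 0.35 and 0.34 on the log2 scale in random-primed depleted and input libraries, and by 0.43 and 0.39 in poly(A)-primed depleted and input libraries. Eig71Ee was lowest in replicate 2 in all 4 groups. Sgs3 did not follow this order, since replicate 3 deviated by 0.29 in poly(A)-primed depleted libraries and by -0.39 in poly(A)-primed input libraries. In such bulk RNA, a difference in the number of gland cells and a difference in RNA per cell cannot be told apart. Markers of other tissues also followed RNA sample 3. In all 4 groups replicate 3 was the lowest library for 4 of 6 muscle, 3 of 6 fat body and 5 of 6 epidermis markers. The same held for 3 of 5 gut and 2 of 4 hemocyte markers. By contrast, 1 gut marker, alphaTry, was highest in replicate 3 of all 4 groups. The muscle myosin gene Mhc, for example, was at 1287, 1574 and 552 CPM in random-primed depleted libraries, against 1284, 1472 and 561 CPM in random-primed input libraries, and at 212, 303 and 110 CPM in poly(A)-primed depleted libraries, against 158, 181 and 89.1 CPM in poly(A)-primed input libraries. Of the 6 salivary gland markers that were detected, replicate 3 was the lowest library in all 4 groups for 0 and the highest for 0. In both random-primed groups and in poly(A)-primed input libraries fkh and sage were lowest in replicate 3. In poly(A)-primed depleted libraries they were lowest in replicate 1. Of 10 gland factors and O-glycosylation enzymes, 1 was lowest and 1 highest in replicate 3 of all 4 groups. The share of all genes with either order was not counted. The part of this difference between RNA samples in the glue gene values was not tested. When RNA sample 3 was left out of all groups, an alternative chosen after seeing the data, edgeR called the same 3 glue genes, Sgs1, Sgs3 and Sgs4, in each depletion comparison. Over the 12 libraries, the deviations of Sgs5 and Sgs8 correlated at r = 0.97, those of Sgs7 and Sgs8 at 0.93 and those of Sgs5 and Sgs7 at 0.88, while Sgs3 gave -0.48, -0.43 and -0.48 with Sgs5, Sgs7 and Sgs8. These are descriptions, since the libraries share RNA samples.

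**Figure D4:**
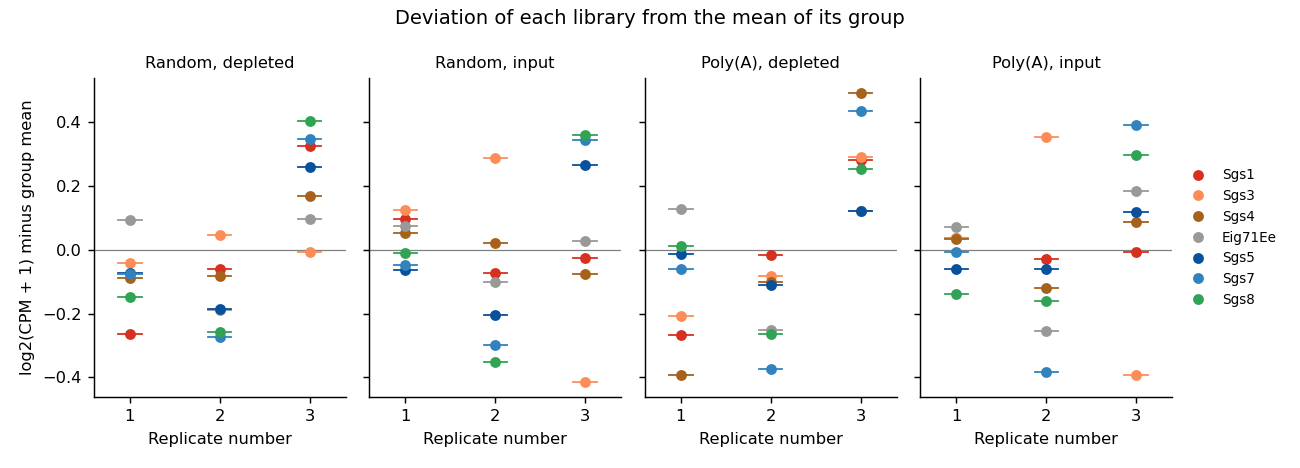
Deviation of each library from the mean of its group (y axis, log2(CPM + 1)) for the 7 glue genes, by replicate number (x axis), in the 4 groups. Sgs5, Sgs7 and Sgs8 are highest in replicate 3 and lowest in replicate 2 of every group, while Sgs3 lies at -0.42 and -0.39 in replicate 3 of the random-primed and poly(A)-primed input libraries.

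Among 4978 genes with at least 10 CPM on average in every group, those whose deviations over the 12 libraries were most like the mean deviation of the 7 glue genes were rl, CG32576, Arpc3A, CG7222, spok, CG33521, CG10465, sqh, FASN3 and CG34276, with Pearson r between 0.93 and 0.96. The first of them, rl, encodes the fly ERK kinase, Arpc3A a subunit of the Arp2/3 complex, and sqh the regulatory light chain of non-muscle myosin. With a pseudocount of 10 in place of 1, 7 of the 10 genes were shared.

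The quantification treated the members alike except for Sgs4. Kallisto assigned a whole number of reads, within 0.01, to each of the other 6 genes in all 12 libraries, but to Sgs4 in 0 of them. The Kallisto count of Sgs4 was 0.813 to 0.851 of its HTSeq count in poly(A)-primed depleted libraries and 0.834 to 0.844 in poly(A)-primed input libraries, whereas the median gene with at least 10 CPM had 0.950 in both groups. Intronic counts of dnc were given for the gene as a whole, not for the intron that contains Sgs4. Sgs4 was overlapped by 0 dnc exons. In poly(A)-primed libraries the intronic counts of dnc were 145 to 283 when depleted and 191 to 352 in input. Sgs4 had 1761 to 1977 and 5164 to 7714 counts there. In random-primed libraries the intronic counts of dnc were 1649 to 2074 when depleted and 73.7 to 138 in input. Sgs4 had 4434 to 5097 and 798 to 1189 counts in these. Sharing of Sgs4 reads with the dnc intron that contains it was not tested. Reads on the members' own introns were rare, at 0.0645% or less of the counts of each gene in every group, compared with 7.49% and 8.41% over all genes in random-primed depleted and input libraries and 2.27% and 2.17% in poly(A)-primed depleted and input libraries. Sgs4 has 0 introns, which fixes its share at 0. The introns of the others are short, that of Sgs1 running from base 60 to base 125. No allowance was made for intron length, so these shares are not like for like.

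None of the other glue and pre-glue genes tested was called without the block. Calls with the replicate number as a block were not read for this list or those below. Of 15 such genes, which included Sgs5bis, the pre-intermoult genes ng1 to ng4 and the rest of the 71E cluster, 9 could be tested in random-primed and 10 in poly(A)-primed libraries, and edgeR and DESeq2 each called 0 in either direction. At an unadjusted p under 0.05, edgeR gave 1 higher in random-primed and 2 lower in poly(A)-primed libraries, where 7.63% of all genes tested in random-primed libraries were lower and 3.64% higher at that level, and 11.7% lower and 8.8% higher in poly(A)-primed libraries (Kallisto counts). Sgs5bis, the paralog beside Sgs5, was at 1850, 1284 and 2536 CPM in random-primed depleted libraries, against 1313, 884 and 1808 CPM in random-primed input libraries, and at 4144, 2832 and 5224 CPM in poly(A)-primed depleted libraries, against 2628, 1854 and 3688 CPM in poly(A)-primed input libraries. The groups overlapped, with log2 fold changes of 0.46 (SE 0.31, edgeR adjusted p = 0.65) and 0.40 (SE 0.29, adjusted p = 0.49) without the block. Again replicate 3 was the highest and replicate 2 the lowest library of each group. Within each RNA sample, however, the Sgs5bis level was higher after depletion in both library types, so the overlap does not show that it was unchanged. Of 11 ecdysone regulators of the glue genes, 11 were tested in random-primed and 10 in poly(A)-primed libraries (Kallisto counts), and edgeR called 0. At an unadjusted p under 0.05 it gave 2 lower in random-primed libraries and 2 lower and 2 higher in poly(A)-primed libraries. Among them br, which encodes the Broad factors, had log2 fold changes of -0.55 (SE 0.14, edgeR adjusted p = 0.084) and -0.50 (SE 0.14, adjusted p = 0.066), and DESeq2 called it, alone of the 11, lower in random-primed libraries. The share of all genes called by DESeq2 was not counted, here or for the markers below. Of 10 salivary gland factors and O-glycosylation enzymes, 10 were tested in random-primed and 8 in poly(A)-primed libraries, and edgeR and DESeq2 each called 0, with median log2 fold changes of -0.03 and 0.09. At an unadjusted p under 0.05, edgeR gave 1 lower and 1 higher in random-primed and 2 higher in poly(A)-primed libraries.

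Markers were read to place these levels in the whole larva. The salivary gland list (fkh, sage, CrebA and ng1 to ng4) summed to 298 to 330 CPM in random-primed depleted and 343 to 387 CPM in random-primed input libraries, and to 235 to 263 and 214 to 260 CPM in poly(A)-primed depleted and input libraries, with ng4 at 0 in all 12. Of its 6 tested genes, edgeR and DESeq2 called 0 in either library type, and at an unadjusted p under 0.05 edgeR gave 1 lower in random-primed libraries and 2 lower and 1 higher in poly(A)-primed libraries. The fat body list summed to 55408 to 73032 and 54729 to 66840 CPM in random-primed depleted and input libraries, above the glue genes' sum in these libraries. In poly(A)-primed libraries it summed to 27331 to 33932 CPM when depleted and to 30337 to 34014 CPM in input. There it was below the glue genes' sum, which was 6.59% to 10.6% of the counts when depleted and 8.03% to 10.9% in input. Of the 6 fat body genes 1, Lsp1beta, was called lower in poly(A)-primed libraries. The epidermis list moved in poly(A)-primed libraries, at 35754 to 51468 CPM when depleted, against 54255 to 67535 CPM in input. There 3 of its 6 genes were called lower (Lcp1, Lcp2 and obst-A). In random-primed libraries its sums overlapped, at 12424.5 to 16455.6 CPM when depleted and 12856.3 to 16632.5 CPM in input. Of the 6 epidermis genes, 2 were called lower in random-primed libraries (Lcp2 and obst-A), and DESeq2 added Lcp1. The gut list summed to 7861 to 11012 CPM in poly(A)-primed depleted and 11245 to 15604 CPM in poly(A)-primed input libraries. Its sums overlapped in random-primed libraries, at 4451 to 6337 CPM when depleted and 4766 to 6605 CPM in input. Of its 5 genes 1, the protease gene Jon99Ciii, was called lower by edgeR in poly(A)-primed libraries. DESeq2 called Jon99Ciii lower in both library types. The muscle list summed to 4040 to 9160 and 3628 to 7655 CPM in random-primed depleted and input libraries, and to 3238 to 8727 and 2630 to 5118 CPM in poly(A)-primed depleted and input libraries. Of its 6 genes edgeR and DESeq2 called 0 in either library type, and at an unadjusted p under 0.05 edgeR gave 1 lower in random-primed and 0 in poly(A)-primed libraries. The hemocyte list summed to 78.5 to 148 CPM in poly(A)-primed depleted and 112 to 211 CPM in poly(A)-primed input libraries. In random-primed libraries it summed to 264 to 475 CPM when depleted and 269 to 537 CPM in input. Of its genes edgeR called 0 of 4 tested in random-primed and 0 of 3 in poly(A)-primed libraries, where 1 was lower at an unadjusted p under 0.05 and DESeq2 called PPO2 lower. What part a difference of tissue content had in the glue gene values was not tested.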

How the data were processed

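The authors trimmed the reads with Cutadapt 2.5 or BBDuk, quantified all 12 libraries with Kallisto 0.46.2 against spliced transcripts plus introns, and deposited estimated counts (expected counts) per gene, spliced and intronic parts summed. They mapped the poly(A)-primed libraries with STAR 2.5.3a and deposited whole-read counts per gene from HTSeq 0.12.4. A deposited table of the authors' own fold changes and p-values was not used. Here estimated counts were rounded, 138 rRNA genes (by symbol) and 7 spike-ins were left out, and HTSeq rows that name no gene (7.81% to 9.88% of counts per library) were dropped. Tests used edgeR 4.0.16 in R 4.3.3 (filterByExpr, TMM, robust quasi-likelihood, Benjamini-Hochberg over all genes, adjusted p below 0.01), without covariates, as the study's methods name none. The HTSeq fit kept rRNA genes, which were then left out of its shares of calls.

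The members and lists were chosen with earlier results of these data known. All 7 members are named in every comparison, list genes only beside their list's count, and the 10 most alike genes by Pearson r. Per the study's methods, one RNA sample gave the input and depleted portions. Deviations of same-numbered depleted and input libraries from their group means correlated at 0.14, 0.43 and 0.74 over 4985 genes in poly(A)-primed libraries. In random-primed libraries they correlated at 0.24, 0.53 and 0.60, so the numbers were taken as pairs. In both types, however, depleted replicate 1 correlated more with input replicate 2 than with input replicate 1. Its correlation with input replicate 2 was 0.43 in poly(A)-primed and 0.28 in random-primed libraries. Alternatives were the replicate block, DESeq2 1.42.0 (test or size factors), spike-in scaling, no count filter, spliced counts alone, rRNA genes kept in the random-primed fit, a threshold of 0.05, a pseudocount of 10 and leaving out each library or, chosen after seeing the data, RNA sample 3 in all groups. On simulated data with 200 genes changed 4-fold, 155 were recovered for the random-primed comparison, 186 for the poly(A)-primed comparison with Kallisto counts, 191 with HTSeq counts and 127 for the difference between library types, with 2, 2, 5 and 1 false calls. The simulated libraries were drawn independently, with a spread set by level alone and no RNA sample effect. These recovered and false calls therefore do not give the error rates in the real libraries. Gene positions and lengths are from Ensembl release 115, BDGP6.54.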

Additional observations from a re-analysis of the deposited data

Results flagged for a closer look

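The depletion effect on Sgs1 differed between the library types, by -2.74 on the log2 scale (SE 0.25, edgeR adjusted p = 1.8e-05 over 11175 genes, random-primed minus poly(A)-primed). The level after depletion was within 23.6 to 36.0 CPM in random-primed and 29.5 to 43.7 CPM in poly(A)-primed libraries, while the input level was 1063 to 1198 CPM in random-primed and 167 to 175 CPM in poly(A)-primed libraries. The difference was of the same direction and passed the threshold in each of the 12 fits that left out 1 library, where it ranged between -2.97 and -2.60, and in the 8 other alternatives, where it ranged between -3.01 and -2.59.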

How the results depend on the processing

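Without a block, 3 of the 7 glue genes were called in each depletion comparison and 1 in the comparison of library types. With the replicate block the number was 5 in each depletion comparison and 4 in the comparison of library types. Among the 7 glue genes it changed no other call than those given beside the genes, and the cause was not tested. Under the remaining alternatives that used all libraries (DESeq2 size factors, DESeq2's test, spike-in scaling, no filter on low counts, a threshold of 0.05, spliced counts alone, rRNA genes kept) the number stayed at 3 and 1. When 1 library was left out it was between 2 and 3 in each poly(A)-primed comparison, where Sgs4 lost its call, 3 in the random-primed comparison and 1 in the comparison of library types. With RNA sample 3 left out of all groups, an alternative chosen after seeing the data, the numbers were again 3 in each depletion comparison and 1 in the comparison of library types. Shares of all genes called were counted only for the edgeR fits on all libraries with and without the block, not for these alternatives. Signs turned only for changes that had not been called. Sgs7 in poly(A)-primed libraries ranged between -0.30 and 0.16 with HTSeq counts and between -0.27 and 0.18 with Kallisto counts when 1 library was left out. Sgs8 in random-primed libraries ranged between -0.28 and 0.24, and was -0.0125 with DESeq2 size factors, -0.0141 with DESeq2's test, -0.16 with spike-in scaling, -0.0162 with spliced counts alone and -0.0356 without RNA sample 3. Eig71Ee in the comparison of library types ranged between -0.16 and 0.24, and was -0.0452 with DESeq2 size factors, -0.0449 with DESeq2's test and -0.12 with spike-in scaling. Spike-in scaling moved the median of all genes to -0.10 in random-primed libraries, to -0.04 in poly(A)-primed libraries and to -0.08 in the comparison of library types. The random-primed input libraries, with 428039 to 596423 non-rRNA counts, limit the precision of every random-primed ratio.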
